A study of Homo sapiens with 4 samples.

Results

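Lysine acetylation of histones is set by 3 kinds of protein, and the transcripts of 32 of them were followed here in A375 cells, an established human melanoma line, after exposure to a medium-chain fatty acid. The genes were taken by symbol from a fixed list: 11 zinc-dependent histone deacetylases (HDAC1 to HDAC11), 7 NAD-dependent deacylases (SIRT1 to SIRT7), 12 acetyltransferases and coactivators, and 2 bromodomain proteins, BRD2 and BRD3. All 32 were found among the 56832 genes of the deposited table, and all 32 passed the filter of a mean normalised count of at least 10, as did 20250 genes in all. The cells, of WT genotype per the labels, were grown in DMEM with FBS and were exposed for 48 h to 1 mM octanoate or to isopropanol, the vehicle. There were 2 libraries of total RNA per group, and the labels do not say whether these came from separate cultures, so the p-values below measure the spread between these libraries only.

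Acetyltransferases move the acetyl group of acetyl-CoA onto lysine, which loosens the hold of histone tails on DNA, and deacetylases remove it. Class I HDACs (HDAC1, HDAC2, HDAC3 and HDAC8) are mostly nuclear enzymes of corepressor complexes, class IIa enzymes (HDAC4, HDAC5, HDAC7 and HDAC9) shuttle between nucleus and cytoplasm and have little catalytic activity of their own, and HDAC6 deacetylates tubulin in the cytoplasm. Sirtuins spend NAD for each group removed, and bromodomain proteins bind the acetylated lysine. Short-chain fatty acids such as butyrate are known inhibitors of HDAC enzymes, and fatty acid oxidation yields acetyl-CoA. The present data are RNA levels and hold no measure of enzyme activity or of histone acetylation.

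The libraries held between 67785956 and 78005035 recovered reads. Of the melanoma markers examined, SOX10 stood between 34072 and 41363 normalised counts and S100B between 1746 and 4234, while the pigment genes MLANA (34.9 to 52.0) and TYR (1.93 to 3.93) were near the bottom of the range. The 7 immune markers summed to between 37.8 and 49.9 normalised counts in a library. The 6 epithelial markers summed to 1003 and 1178 in vehicle and to 279 and 319 in octanoate, a difference carried by KRT14 (1110.1 and 942 against 266 and 218), whereas EPCAM stayed between 29.1 and 31.8. The 4 endothelial markers summed to 576 to 580.1 in vehicle and 787 to 792 in octanoate, and the 6 fibroblast markers to 2557 to 2624 and 2244 to 2387. The part of these marker changes in the results below was not tested.

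Octanoate was followed by a change in 10 of the 32 members, 3 rising and 7 falling, where a change was called from a limma adjusted p below 0.05. Over all 20250 tested genes 29.9% were called, 16.2% higher and 13.7% lower, so the share of members called (31.2%) was close to that of the background. The test is more sensitive at high counts, and of the genes whose mean reached 500, 38.4% were called, 19.2% in each direction, against 10 of the 30 members in that range (33.3%). The members thus changed about as often as other genes of their abundance, and the tilt to lower calls is a description of this list and was given no test. The groups did not overlap for 24 of the 32 members, against 63.1% of all tested genes. The median log2 difference of the members was -0.10, against 0.0050 for all tested genes and -0.016 for those whose mean reached 500. Without vehicle 1 the members' median was -0.032 and 5 members were called. DESeq2 on the recovered reads called 9 members (30.3% of its genes), edgeR 11 (32.0%), and limma without its intensity trend 1, KAT2B (8.02%). After removal of trends on GC content and length the split was 2 higher and 10 lower.

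No member changed by 2-fold or more. The 7 lower calls were KAT2B, HDAC7, CREBBP, SIRT1, SIRT7, HDAC6 and HDAC1, and the 3 higher calls HDAC11, HDAC9 and SIRT6. The median absolute log2 difference of the 10 was 0.27, against 0.28 for the called genes whose mean reached 500. KAT2B stood out in size: only 4.52% of the 10536 genes whose mean reached 500 had a larger absolute difference, against 9.24% for HDAC11, 12.6% for HDAC7 and 41.1% for HDAC1.

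**Figure D1:**
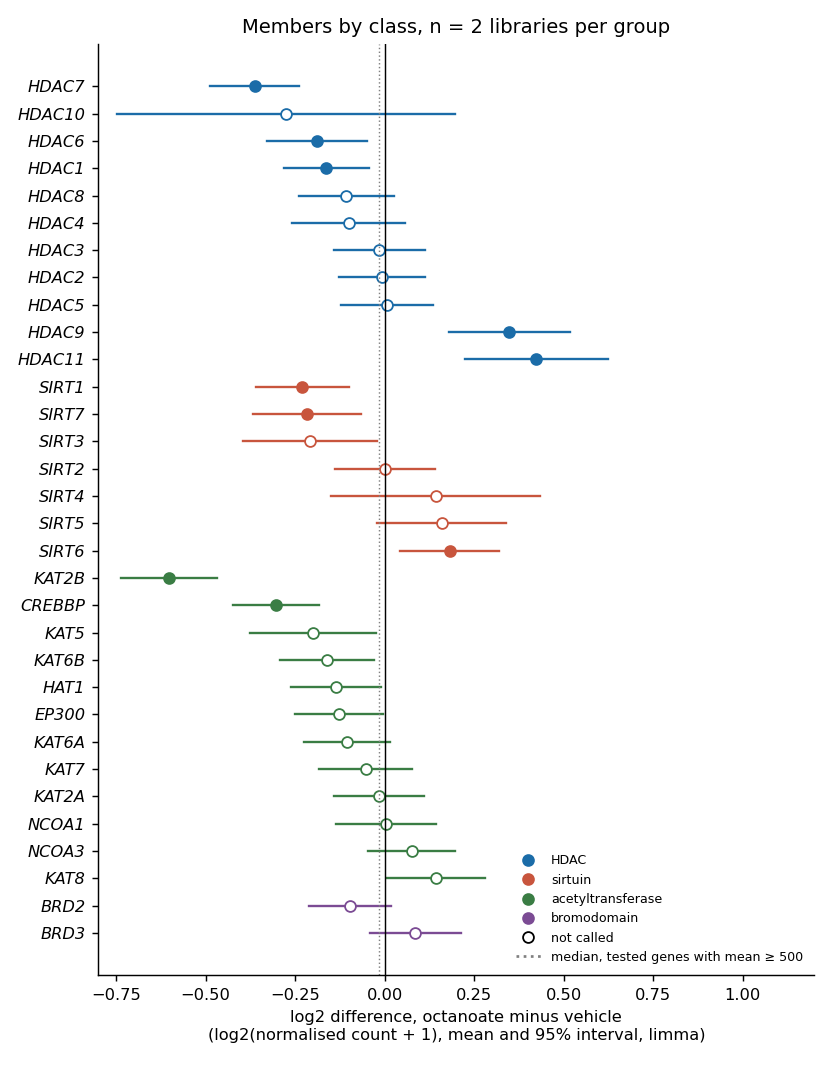
Log2 difference of each of the 32 members between octanoate and vehicle on the log2(normalised count + 1) scale, with the 95% interval from limma (n = 2 libraries per group), ordered within each class. Filled points passed an adjusted p under 0.05, and the dotted line marks the median of tested genes whose mean reached 500 (-0.016). KAT2B lies lowest at -0.60 and HDAC11 highest at 0.42, and HDAC10 has the widest interval.

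The regulatory start regions of 4 called genes are shown, a choice that holds both directions of change. Their printed windows lie wholly or nearly so outside annotated exons. Windows at RefSeq start sites were used for 28 of the 32 members, 49 windows in all, several of which overlap one another. None was used for HDAC5, KAT6A, KAT8 and SIRT7, which does not mean that RefSeq gives no start for them. Each window is the 250 bases before a start (GRCh38.p14), printed 5′ to 3′ on the gene's strand. Bases that lie in a GENCODE 29 exon were left off, and capitals mark the motifs named below. The KAT2B window lies wholly and the HDAC11 window largely in exons, and the HDAC7 window held none of the motifs, so these 3 are not printed. Windows of HDAC6 and SIRT6, a further CREBBP window that lies wholly in exons and further HDAC9 windows are not printed either. The printed windows are CREBBP, minus strand, chr16:3880727-3880963, SIRT1, plus strand, chr10:67884406-67884655, and HDAC1, plus strand, chr1:32291833-32292082. Of the alternative starts of HDAC9, plus strand, 2 are printed, the upstream one at chr7:18086575-18086824 and an internal one at chr7:18495460-18495709.
CREBBP: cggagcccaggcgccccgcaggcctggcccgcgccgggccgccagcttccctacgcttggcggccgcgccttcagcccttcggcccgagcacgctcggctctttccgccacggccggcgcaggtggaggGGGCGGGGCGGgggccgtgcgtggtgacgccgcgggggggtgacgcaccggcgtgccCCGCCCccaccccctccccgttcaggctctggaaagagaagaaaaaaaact
SIRT1: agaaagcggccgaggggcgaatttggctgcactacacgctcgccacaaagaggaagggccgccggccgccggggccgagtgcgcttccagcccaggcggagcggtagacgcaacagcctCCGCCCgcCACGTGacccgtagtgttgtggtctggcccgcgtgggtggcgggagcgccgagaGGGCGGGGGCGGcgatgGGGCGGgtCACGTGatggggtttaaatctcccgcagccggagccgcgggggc
HDAC1: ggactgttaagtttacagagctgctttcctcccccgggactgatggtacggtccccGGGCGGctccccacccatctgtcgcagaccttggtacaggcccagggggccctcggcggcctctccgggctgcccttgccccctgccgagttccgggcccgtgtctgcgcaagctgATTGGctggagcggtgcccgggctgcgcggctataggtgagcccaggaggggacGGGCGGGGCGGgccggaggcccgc
HDAC9 upstream start: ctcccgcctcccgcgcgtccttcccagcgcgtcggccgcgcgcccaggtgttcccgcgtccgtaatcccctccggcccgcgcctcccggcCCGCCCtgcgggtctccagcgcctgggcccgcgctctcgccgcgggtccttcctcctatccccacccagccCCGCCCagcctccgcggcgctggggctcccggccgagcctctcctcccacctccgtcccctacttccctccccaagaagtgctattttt
HDAC9 internal start: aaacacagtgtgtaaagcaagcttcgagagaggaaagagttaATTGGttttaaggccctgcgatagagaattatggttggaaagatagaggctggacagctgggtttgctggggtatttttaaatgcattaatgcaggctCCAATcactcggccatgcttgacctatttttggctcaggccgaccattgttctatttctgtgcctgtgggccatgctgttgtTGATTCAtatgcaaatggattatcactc

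The motifs searched on both strands were the GC box (GGGCGG), the CCAAT box (CCAAT), the E-box (CACGTG), the cyclic AMP response element (TGACGTCA), the AP-1 site (TGANTCA) and the TATA box (TATAAA), of which GC boxes can overlap one another. In the AP-1 pattern N stands for any base, so its hits are matches to this loose pattern only. The GC box was found in 26 of the 49 member windows (53.1%) and in 42.5% of all 34943 RefSeq windows of the same length. The E-box was in 3 member windows (6.12%), against 6.32% of all windows, and the SIRT1 window held 2 of them besides 4 GC boxes. CCAAT was in 24.5% of the member windows and 32.0% of all. The AP-1 site was in 6.12% and 6.59%, the TATA box in 4.08% and 10.8%, and the cyclic AMP response element in 1 member window and 1.63% of all. GC content separated the 2 printed HDAC9 windows, 75.2% at the upstream start and 44% at the internal one. The internal window held 2 CCAAT boxes and 1 match to the AP-1 pattern, TGATTCA. The other internal HDAC9 windows had 38.4% to 48.0%. The printed CREBBP window, before exon bases were left off, had a GC content of 72.4%, SIRT1 of 72.0% and HDAC1 of 71.6%. The median was 66.4% over the member windows and 58.0% over all windows. Which start A375 cells use cannot be read from counts per gene.

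Levels of the members were ranked after division by transcript length, as normalised counts per kilobase. The length was the median of the gene's basic protein-coding transcripts in GENCODE 29. The paralogue shares given further below are of counts that were not divided by length. HDAC1 and HDAC2 were the most abundant members, HDAC1 at 9853 and 9266 per kilobase in vehicle 1 and 2 and at 8618 and 8457 in octanoate, HDAC2 at 8173 and 8132 in vehicle and at 8483 and 7760.4 in octanoate. Within each of the 4 libraries HDAC1 was above HDAC2, though the ranges of the 2 genes over the octanoate libraries overlapped. The type B acetyltransferase gene HAT1, whose product acetylates newly made histones, came next at 4342 to 5079 per kilobase over the 4 libraries, and BRD2 followed at 3250.0 to 3554. HDAC3, the catalytic subunit of the NCoR complexes, lay at 1995 to 2164. At the other end were SIRT4 (120.2 to 135), HDAC4 (116 to 133) and HDAC10 (21.1 to 33.5). Most of the members between these ends had neighbours within their spread, such as HDAC5 (787 to 855) and BRD3 (755 to 834).

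**Figure D2:**
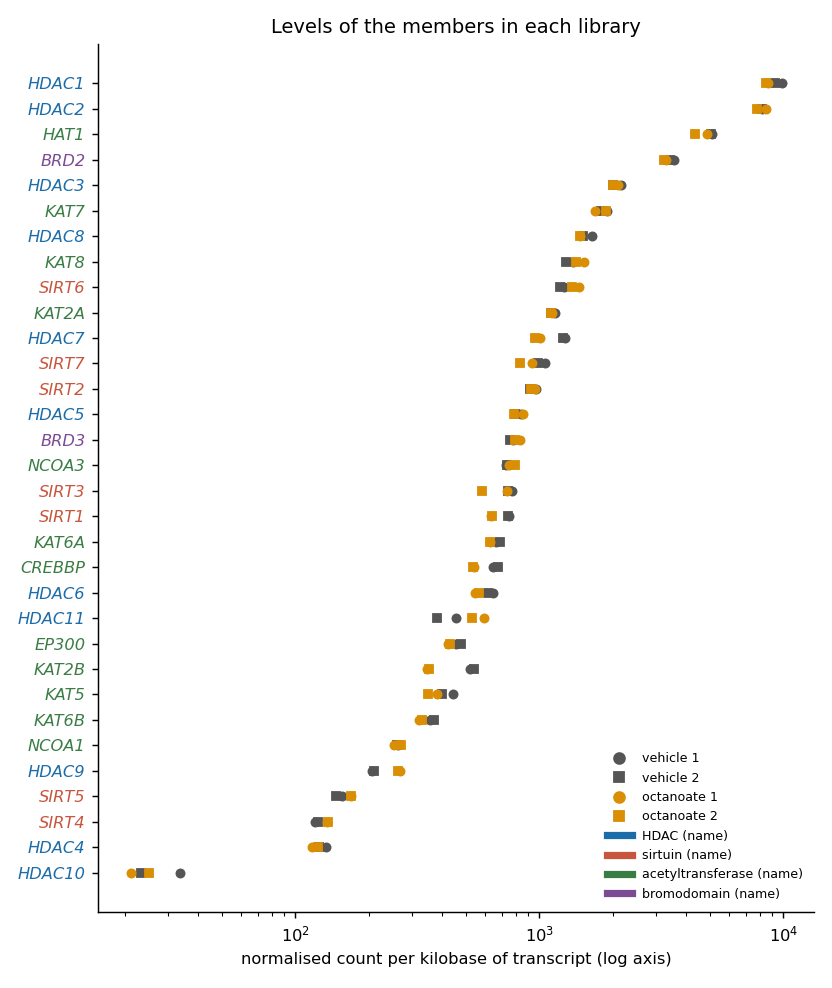
Level of each member as normalised count per kilobase of transcript (log axis) in the 4 libraries, ordered by the mean. The members span from 21.1 per kilobase for HDAC10 to 9853 for HDAC1, and the libraries of a gene lie far closer together than the genes do.

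Among the acetyltransferases KAT2B fell. It encodes PCAF, a GCN5-related enzyme of the SAGA-type and ATAC coactivator complexes (chr3:20040023-20154404 in GENCODE 29). Vehicle 1 held 2514 normalised counts of it and vehicle 2 held 2600.4, the octanoate libraries 1672 and 1697. Both octanoate libraries thus lay far below both vehicle libraries, and the group difference of -34.1% was many times the spread within groups (2557 ± 61.2 against 1685 ± 17.8, SD, n = 2 each). The log2 difference was -0.60 (SE 0.06, limma adjusted p 1.14e-07). It was called under all 16 alternatives run, with a log2 difference between -0.63 and -0.57.

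Its paralogue KAT2A, which encodes GCN5 and competes for the same place in those complexes, gave 3596 and 3457 in vehicle and 3506 and 3470.1 in octanoate. These groups overlapped, and the log2 difference of -0.02 had a 95% interval from -0.14 to 0.11 (limma adjusted p 0.879). KAT2B made up 41.1% and 42.9% of the summed count of the 2 paralogues in vehicle, and 32.3% and 32.8% in octanoate. These counts were not divided by transcript length, so the shares are not shares of transcript number. The shift of 9.47 percentage points separated the groups completely, and an exact two-sided permutation test gave 0.333, the smallest p that 2 against 2 libraries allow.

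CREBBP, which encodes the broad-specificity acetyltransferase CBP, fell as well. Its count was 5951 and 6247 in vehicle and 4959 and 4919 in octanoate (chr16:3725054-3880726 in GENCODE 29). The octanoate libraries lay close together and below both vehicle libraries, a change of -19.0%. The log2 difference was -0.30 (SE 0.06, limma adjusted p 0.000272). The paralogue EP300 had 4379.7 and 4564 in vehicle and 4055 and 4128 in octanoate. Its groups did not overlap either, but its log2 difference of -0.13 (95% interval -0.25 to -0.01) was not called (limma adjusted p 0.108). The CREBBP share of the pair went from 57.6% and 57.8% in vehicle to 55.0% and 54.4% in octanoate, again with an exact permutation p of 0.333.

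None of the 5 MYST-family acetyltransferase genes was called, while 3 of them had an unadjusted p under 0.05, against 39.7% of all tested genes and 48.6% of those whose mean reached 500. KAT5, which encodes TIP60 of the NuA4 complex, had 909 and 818 in vehicle and 784 and 717 in octanoate. These groups did not overlap, and the log2 difference was -0.20 (95% interval -0.38 to -0.03, limma adjusted p 0.0784). It was -0.13 without vehicle 1 and -0.14 without octanoate 2, and the adjusted p of KAT5 was 0.0447 with equal totals and 0.0140 after removal of trends on GC content and length, within a range of 0.0136 to 0.447 over its alternatives. Its value is uncertain since 38.6% of its exon bases overlap RNASEH2C on the opposite strand. KAT6B, a catalytic subunit with BRPF partners, had 2550.1 and 2652 in vehicle and 2296 and 2356 in octanoate (log2 difference -0.16, limma adjusted p 0.0586). The adjusted p of KAT6B was 0.0373 with edgeR and 0.0438 with TMM scaling, within a range of 0.00502 to 0.258 over its alternatives. KAT6A (-0.11) and KAT7 (-0.05), the catalytic subunit of HBO1 complexes, had smaller differences, and KAT8, which acetylates lysine 16 of histone H4, had one of 0.14 (95% interval 0.01 to 0.28, limma adjusted p 0.106).

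HAT1 had 8258 and 8168 in vehicle and 7919.8 and 7059 in octanoate, so its group difference rested largely on octanoate 2 (log2 difference -0.14, limma adjusted p 0.0994). Without octanoate 1 the log2 difference of HAT1 was -0.22, and over the fits with 1 library left out it ran from -0.22 to -0.05. HAT1 was called with equal totals, with the replicate number as a block and after removal of trends on GC content and length (lowest limma adjusted p 0.00596). The nuclear receptor coactivators NCOA1 and NCOA3, which recruit acetyltransferases, had log2 differences of 0.00 (95% interval -0.14 to 0.14) and 0.08 (-0.05 to 0.20). The class median over the 12 acetyltransferase genes was -0.12, with 9 genes below 0 and 2 called (16.7%), both lower. Of all tested genes 29.9% were called, and 38.4% of those whose mean reached 500.

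**Figure D3:**
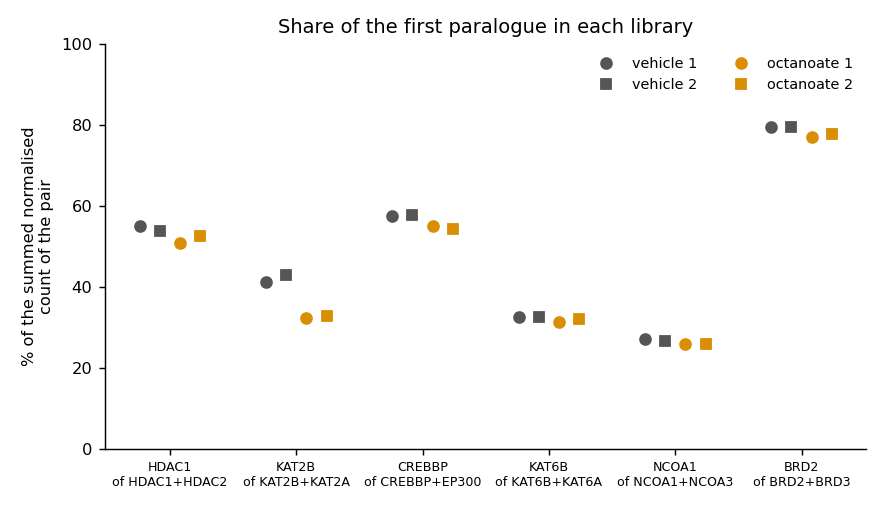
Share of the first-named paralogue in the summed normalised count of each of 6 pairs, in percent, in the 4 libraries. KAT2B of KAT2B and KAT2A shows the widest gap, from 41.1% and 42.9% in vehicle to 32.3% and 32.8% in octanoate, while KAT6B of KAT6B and KAT6A moved least, from 32.5% in both vehicle libraries to 31.3% and 31.9%.

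In the other pairs the shifts were smaller. The HDAC1 share of HDAC1 and HDAC2 was 55.1% and 53.7% in vehicle and 50.9% and 52.6% in octanoate, and the BRD2 share of BRD2 and BRD3 was 79.5% and 79.4% against 77.0% and 77.6%. The groups did not overlap in any of the 6 pairs, which were chosen after the values were seen. As single genes, 63.1% of all tested genes had groups that did not overlap, and no share for other gene pairs was taken. Each of the 6 pairs had the exact permutation p of 0.333, and none could reach a lower value in this design. The shift of the KAT6B share was -0.84 percentage points, -0.53 without octanoate 1 and -1.15 without octanoate 2.

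The class IIa deacetylase genes moved apart. HDAC7 fell from 4151 and 4078 in vehicle to 3273 and 3129 in octanoate (chr12:47782722-47833132 in GENCODE 29). The 2 groups were well separated, by -22.2%, and the log2 difference was -0.36 (SE 0.06, limma adjusted p 5.40e-05). HDAC9 rose from 659.6 and 674 to 858 and 841 (chr7:18086949-19002416), an increase of 27.3%. Its log2 difference was 0.35 (SE 0.08, limma adjusted p 0.00208). HDAC4 (-0.10, 95% interval -0.26 to 0.06) and HDAC5 (0.01, -0.12 to 0.14) were not called. HDAC4 transcripts share sequence with 54 other genes, so the HDAC4 count is uncertain. In HDAC7, 9.70% of the exon bases overlap the antisense gene AC004466.1, and whether counting used the strand is not given in the sources used here. The calls of HDAC7 and HDAC9 held when any library was left out.

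HDAC11, the single class IV enzyme, known as a remover of long fatty acyl groups from lysine, had the largest rise of the list. Its count was 587 and 492 in vehicle and 761 and 683 in octanoate (chr3:13479724-13506424). The replicates were further apart than for HDAC9, yet the groups did not overlap, and the mean rose by 33.8% (539.6 ± 67.0 to 722 ± 55.6, SD, n = 2 each). The log2 difference was 0.42 (SE 0.10, limma adjusted p 0.00163). Without vehicle 2, the library with the lowest count, it was 0.30 and the adjusted p 0.0627, within a range of 3.75e-06 to 0.132 over the 16 alternatives. Its exons overlap the antisense gene HDAC11-AS1 over 330 bases.

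Of the class I genes only HDAC1 was called. It gave 20928 and 19682 in vehicle and 18306 and 17963 in octanoate, a decrease of 10.7% with no overlap between the groups. The log2 difference was -0.16 (SE 0.06, limma adjusted p 0.0335), and the call was lost without vehicle 1 (-0.12, adjusted p 0.222), without octanoate 1 (-0.18, 0.103) and without octanoate 2 (-0.15, 0.196), within a range of 0.000503 to 0.222 over the alternatives. HDAC2, its partner in the Sin3, NuRD and CoREST complexes, had 17032 and 16947 in vehicle and 17678 and 16173 in octanoate. The octanoate libraries of HDAC2 lay on either side of the vehicle pair, and its log2 difference of -0.01 had a 95% interval from -0.13 to 0.11. HDAC3 (-0.01, -0.14 to 0.11) and HDAC8 (-0.11, -0.24 to 0.03) were not called.

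HDAC6, a class IIb enzyme that deacetylates tubulin, had 1936 and 1837 in vehicle and 1624 and 1684 in octanoate. The groups were apart by -12.3%, or -0.19 on the log2 scale (SE 0.07, limma adjusted p 0.0374). This call was lost when any library was left out, with log2 differences of -0.15 without vehicle 1, -0.23 without vehicle 2, -0.16 without octanoate 1 and -0.22 without octanoate 2 and adjusted p-values of 0.229, 0.0627, 0.193 and 0.0726 (range over the alternatives 0.00271 to 0.229). HDAC10, a polyamine deacetylase, was the member with the fewest reads. Its counts of 79.5 and 55.2 in vehicle and 50.1 and 59.6 in octanoate overlapped, and its 95% interval from -0.75 to 0.20 was too wide to show a change of the size seen in the other members. In GENCODE 29, 55.8% of its exon bases are shared with MAPK12 on the same strand, so its count is uncertain. Over the 11 HDAC genes, 3 were called lower and 2 higher (45.5%), against 29.9% of all tested genes and 38.4% of those whose mean reached 500. Fewer HDAC genes were called with any library left out. The class median was -0.10, or -0.015 without vehicle 1.

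All 3 sirtuins that reside mainly in the nucleus were called, in different directions, and each call was lost without vehicle 1. Of the 7 sirtuin genes 42.9% were called, against 29.9% of all tested genes and 38.4% of those whose mean reached 500. SIRT1, a deacetylase of histones and of transcription factors such as p53, had 2595 and 2575 in vehicle and 2196 and 2213 in octanoate. The replicates lay close together and the groups were apart by -14.7%. The log2 difference was -0.23 (SE 0.06, limma adjusted p 0.00722), and without vehicle 1 it was -0.22 with an adjusted p of 0.0515 (range over the alternatives 7.56e-05 to 0.105).

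SIRT7, the nucleolar sirtuin, had 1843 and 1714 in vehicle and 1618 and 1448 in octanoate. The log2 difference was -0.22 (SE 0.07, limma adjusted p 0.0278), and the call was lost without vehicle 1 (-0.16, 0.228) and without octanoate 2 (-0.14, 0.315), within a range of 0.000325 to 0.315. SIRT6, a chromatin-bound deacylase, was the sirtuin that rose, from 1892 and 1835 to 2183 and 2046. Its log2 difference was 0.18 (SE 0.07, limma adjusted p 0.0425). The call was lost without vehicle 1 (0.20, 0.0932), vehicle 2 (0.16, 0.191) and octanoate 1 (0.13, 0.297), with DESeq2 (0.18, 0.0661) and after removal of trends on GC content and length (0.13, 0.0832), within a range of 0.00272 to 0.297. SIRT6 and SIRT7 are thus calls near the threshold.

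**Figure D4:**
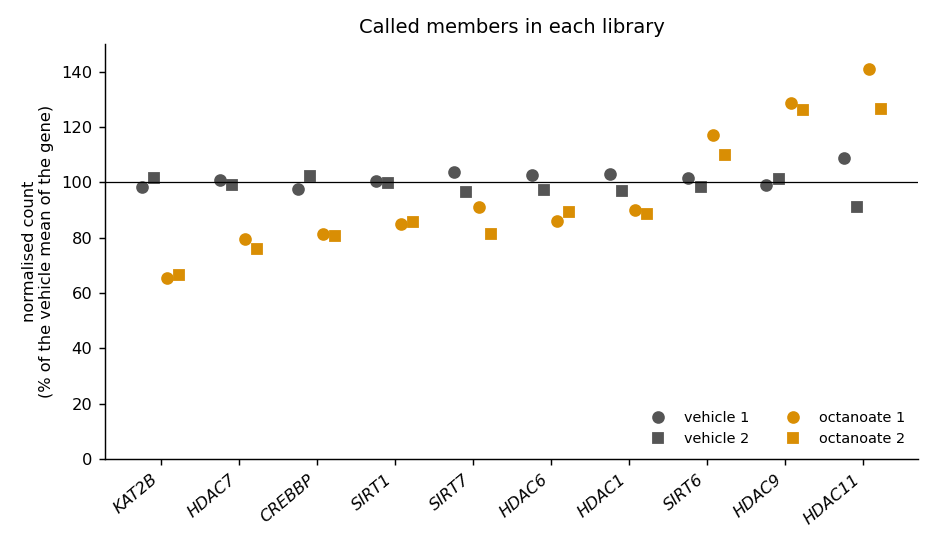
Normalised count of the 10 called members in each library, as percent of the gene's vehicle mean (axis from 0). The octanoate libraries of KAT2B sit near 65 percent and those of HDAC11 and HDAC9 above 120 percent, and in none of the 10 genes do the groups overlap.

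The 3 mitochondrial sirtuins and the mainly cytoplasmic SIRT2 were not called. SIRT3, the main mitochondrial deacetylase, had 1076 and 1039.6 in vehicle and 1028 and 815 in octanoate. Only octanoate 2 was clearly low, and the log2 difference was -0.21 (95% interval -0.40 to -0.02, limma adjusted p 0.0877). Without octanoate 1 the log2 difference of SIRT3 was -0.38, and over the fits with 1 library left out it ran from -0.38 to -0.04. After removal of trends on GC content and length it was -0.24 with a limma adjusted p of 0.00334, and SIRT3 was also called with the replicate number as a block. SIRT4 had a log2 difference of 0.14 (-0.15 to 0.43) and the desuccinylase gene SIRT5 one of 0.16 (-0.02 to 0.34). SIRT2 had one of 0.00 (-0.14 to 0.14). Over the 7 sirtuin genes the median was 0.0017, and it was below 0 with equal totals, with DESeq2, after removal of trends on GC content and length, without vehicle 2 (-0.043) and without octanoate 1 (-0.025).

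Of the bromodomain genes, BRD2 had 12322 and 11927 in vehicle and 11397 and 11268 in octanoate (log2 difference -0.10, 95% interval -0.21 to 0.02, limma adjusted p 0.2). BRD3 had 3183 and 3089 in vehicle and 3412 and 3244 in octanoate (0.09, -0.04 to 0.21, limma adjusted p 0.322). For each gene the groups did not overlap, one being lower and the other higher under octanoate, and neither difference passed the test. BRD3 exons overlap BRD3OS on the opposite strand over 18.6% of their bases.

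Of the 22 members that were not called, 17 had a 95% interval that lay within a 1.25-fold change in either direction. For the other 5 (HDAC10, SIRT3, SIRT4, SIRT5 and KAT5) the interval reached beyond that size, so a change of that size was not bounded. The standard error of the log2 difference ran from 0.06 to 0.14 for the members other than HDAC10, whose standard error was 0.23. The authors' deposited table gives 7 members an adjusted p under 0.05, against 12.9% of its 33533 genes. Those genes were not limited to the 20250 with a mean of at least 10, so this share is not one for genes of the members' abundance. The 7 members were HDAC1, HDAC7, SIRT1, KAT2B and CREBBP with a negative, and HDAC9 and HDAC11 with a positive, log2 fold change in the authors' deposited table. All 7 are among the 10 called by limma, and SIRT6, SIRT7 and HDAC6 are not called in the authors' deposited table.

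The partners of these enzymes were described from 5 further lists, 129 tested genes in all. Of these, 50 were called, 39 lower and 11 higher, which is 38.8% against 29.9% of all tested genes and 38.4% of those whose mean reached 500. This count was 30 without vehicle 1 and 28 without octanoate 2. Among the 33 subunits of HDAC corepressor complexes, 13 were called lower and 5 higher (54.5%), with a median log2 difference of -0.13. The 3 lower calls with the smallest p were SAP30L (2762 and 2594 in vehicle, 2073 and 1862 in octanoate, log2 difference -0.45), RBBP4 (-0.32) and MBD3 (-0.35). SAP30L is a Sin3 subunit, RBBP4 a histone-binding subunit shared by Sin3 and NuRD, and MBD3 a NuRD subunit. The higher calls with the smallest p were TBL1X (12878 and 12349.7 against 16190.0 and 15884, log2 difference 0.35), a subunit of the NCoR complexes, the Sin3 scaffold gene SIN3B (0.27) and MIER2 (0.31), which binds HDAC1 and HDAC2. Without vehicle 2 the log2 difference of MIER2 was 0.23 and its adjusted p 0.0536, within a range of 3.72e-07 to 0.136. RBBP4 exons overlap SYNC on the opposite strand over 18.0% of their bases, and RBBP4 transcripts share sequence with 7 other genes. MIER2 transcripts share sequence with 10 other genes.

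In the acetyltransferase complexes 31.0% of 42 partner genes were called, against 29.9% of all tested genes and 38.4% of those whose mean reached 500. Of the 42, 11 were called lower and 2 higher (median -0.08). This count of 13 was 6 without vehicle 1 and 6 without octanoate 2. JADE2, a scaffold of HBO1 complexes, fell from 7697 and 7663 to 5456 and 5237, or -0.52 on the log2 scale (SE 0.06, limma adjusted p 1.37e-07). The related scaffold gene JADE3 rose from 1518 and 1505 to 1855 and 1871, or 0.30 on the log2 scale (SE 0.07, limma adjusted p 0.00131), so the 2 JADE genes moved in opposite directions with no overlap between groups in either. RBBP7 (-0.24) and the NuA4 subunit gene EPC2 (-0.26) were also lower. YEATS2, a reader subunit of the ATAC complex, was higher by 0.17, a call lost without vehicle 2 (0.13, adjusted p 0.209), octanoate 1 (0.17, 0.134) and octanoate 2 (0.18, 0.106), within a range of 0.000918 to 0.209.

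Among 33 other bromodomain and YEATS-domain genes 30.3% were called, against 29.9% of all tested genes and 38.4% of those whose mean reached 500. Of the 33, 8 were called lower and 2 higher (median -0.13). This count of 10 was 5 without vehicle 1, 5 without vehicle 2 and 4 without octanoate 2. BRD8, a NuA4 subunit, fell from 7035 and 7036 to 5159 and 5263 (log2 difference -0.43), and the coregulator gene TRIM24 by 0.28 on the log2 scale. BRD8 shares exon bases with KIF20A on the opposite strand (132 bases). TRIM28, a corepressor of zinc finger proteins, had -0.28, a call lost without vehicle 1 (-0.20, adjusted p 0.0538) and octanoate 2 (-0.21, 0.0790), within a range of 4.06e-08 to 0.173. CECR2 had 0.25, YEATS2 is in this list too, and the CECR2 call was lost when any library was left out (adjusted p between 0.0762 and 0.149) and with DESeq2 (0.0985). Of 12 other acetyltransferase genes, 5 were called lower and 0 higher (41.7%). An unadjusted limma p under 0.05 was found for 6 of them, near the 48.6% of genes whose mean reached 500. Without vehicle 2 or octanoate 1 the count of calls was 3. The lower calls included GTF3C4, a subunit of the RNA polymerase III factor TFIIIC (9200.0 and 9254 against 7007 and 7110.4, log2 difference -0.39), the cohesin acetyltransferase gene ESCO2 (-0.31) and NAA60 (-0.27). The NAA60 call was lost without vehicle 1 (-0.18, adjusted p 0.139) and octanoate 2 (-0.21, 0.0647), within a range of 5.21e-06 to 0.177. ESCO2 transcripts share sequence with 37 other genes, so its count is uncertain.

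Among genes of acetyl-CoA and NAD supply and use, 16 were tested. The share called was 29.9% over all tested genes and 38.4% over those whose mean reached 500. Of the 16, 5 were called lower and 3 higher, 8 in all. This count was 5 without vehicle 1 and 3 without octanoate 2. ACSS1, the mitochondrial acetyl-CoA synthetase, fell from 2579 and 2408 to 1667 and 1518, or -0.65 on the log2 scale (SE 0.07, limma adjusted p 1.05e-07). ACLY, which makes cytosolic acetyl-CoA from citrate, had 28845 and 26970.4 in vehicle and 24121 and 23015 in octanoate (-0.24, limma adjusted p 0.00257). Without octanoate 2 the ACLY log2 difference was -0.21 and the adjusted p 0.0554, within a range of 4.72e-07 to 0.134.

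On the NAD side, NAMPT, the rate-limiting enzyme of NAD salvage, rose from 10182 and 10187 to 13347 and 14039.8, or 0.43 on the log2 scale (SE 0.06, limma adjusted p 2.34e-06). NNMT, which methylates nicotinamide and so withdraws it from salvage, fell from 5214 and 5014 to 3794 and 3419 (-0.51, SE 0.06, limma adjusted p 1.01e-06). For each gene the 2 groups were well apart. NAMPT transcripts share 1451 bases at 99.2% identity with NAMPTP1. NAMPT exons overlap the antisense gene AC007032.1 over 8.69% of their bases. NMNAT2 (0.19) and ACAT1 (0.15, limma adjusted p 0.0497) were called higher near the threshold. The NMNAT2 call was lost without vehicle 1 (0.19, adjusted p 0.0969), vehicle 2 (0.19, 0.0830) and octanoate 2 (0.15, 0.217), within a range of 0.000538 to 0.217. That of ACAT1 was lost without vehicle 2 (0.10, 0.321), octanoate 1 (0.17, 0.112) and octanoate 2 (0.14, 0.228) and with a pseudocount of 0.5 (0.0501), within a range of 0.00191 to 0.321.

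**Figure D5:**
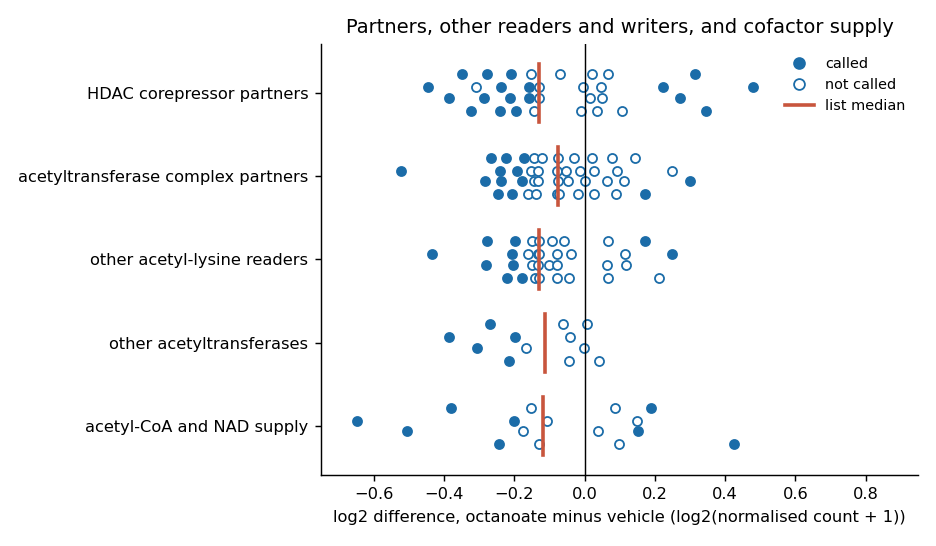
Log2 difference between octanoate and vehicle, on the log2(normalised count + 1) scale, of each tested gene in 5 lists. The lists hold partners, other readers and writers, and genes of cofactor supply and use. Filled points passed an adjusted p under 0.05, and bars mark list medians. The medians lie between -0.13 and -0.08, and most filled points lie left of 0.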

How the data were processed

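RNA was measured in 4 libraries. Per the submitters' processing notes, bcl2fastq 2.17, Trim Galore, STAR 2.4, Picard, HTSeq 0.9.1, DESeq2 and hg38 were used, while the annotation and the use of strand are not given in the sources used here. The deposited signal per gene is a normalised count, per the file's name. Every positive value was a whole multiple (tolerance 0.01) of its library's smallest, so whole reads were recovered (67785956 to 78005035 per library). The second deposited table gives the authors' log2 fold changes, test scores, p-values and mean signal.

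Genes with a mean of at least 10 (20250) were log2-transformed after adding 1 and compared in limma 3.58.1 (R 4.3.3) with a trended variance prior and two-sided Benjamini-Hochberg adjustment over all of them. This scale understates changes of low genes. Replicates differed by more than sampling noise (chi-square per degree of freedom 5.28 and 7.31). An exact permutation test of 2 against 2 cannot go below 0.333. Each of these choices was varied: pseudocounts of 0.5 and 5, no filter, a mean of 50, TMM, equal totals, no trend, a replicate block, each library left out, edgeR 4.0.16, DESeq2 1.42.0 and removal of trends on GC content and length; a fit on genes matched to GENCODE 29 alone was chosen after seeing the data. Overlaps and positions come from GENCODE 29 (GRCh38). Shared sequence was searched with blastn 2.17.0 (at least 95% identity over 100 bases). Fits were tested on simulated data.

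The members and lists were chosen with earlier results of these data known. Values in each library are given for every called member and for the 2 smallest p of a class with fewer than 2 calls. For the other lists the 3 called genes with the smallest p in each direction are named, and 1 further gene of the rule is not reported here. The other members given in each library and the paralogue pairs were chosen after the values were seen.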

Additional observations from a re-analysis of the deposited data

How the results depend on the processing

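Of the 16 alternatives, 4 changed the number of called members (10) by more than 1.5 times. With no filter 4 members, 18 partner genes and 2595 of all genes were called, and without the intensity trend 1 member (KAT2B), 4 partner genes and 1625 of all genes, against 10, 50 and 6048. What the replicate numbers stand for is not given in the labels. With the replicate number as a block 18 members, 81 partner genes and 8376 of all genes were called, and the deviations of same-numbered libraries correlated with r = 0.126 over the 20250 tested genes and 0.390 over the 9003 with a mean of at least 1000. The block added calls for KAT5, KAT6A, KAT6B and KAT8 among the MYST genes, and called 23 of the 33 other bromodomain and YEATS-domain genes. Leaving out each library gave 5 to 9 called members, 28 to 38 partner genes and 4295 to 4757 of all genes. edgeR called 11 members (32.0% of all tested genes) and DESeq2 called 9 (30.3% of the 16324 genes to which it gave an adjusted p). The split of called members was 2 higher and 10 lower after removal of trends on GC content and length, against 3 and 7. The members' median log2 difference (-0.10) ran from -0.096 to -0.032 with a library left out, that of the HDAC genes (-0.10) from -0.15 to -0.015 and that of the acetyltransferase genes (-0.12) from -0.13 to -0.096. The acetyltransferase median was -0.124 with equal totals, -0.124 with DESeq2 and -0.093 after removal of trends on GC content and length. The sirtuin and bromodomain medians lay near 0 and changed sign among the alternatives. No called member changed sign. GENCODE 29 names matched 75.0% of the tested genes, so the fit on GC content and length says nothing of the remaining genes, though it covers every member. Except where a value or the alternative's own construction shows it, the cause of these differences was not tested.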
